A study of Mus musculus with 8 samples.

Results

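Kidney and spleen were compared in CD8+ T cells of MRL/lpr mice. This strain is mutant in Fas, the death receptor gene (the lpr allele), and falls ill with an autoimmunity like lupus in which the kidney is inflamed. Of the 8 libraries of the study, the 4 made from CD8+ cells were used, 2 from kidney and 2 from spleen, and they were fitted on their own. The other 4 came from CD4+ cells of the same organs. All groups shared the MRL/lpr genotype, an age of 14 weeks and a sort for high surface CD44, a protein that marks T cells that have met antigen, and mice of another genotype are not part of the comparison. The labels do not say how many mice gave a library or whether mice were pooled, so p-values measure only the spread between these libraries. Libraries were made with a SMART-Seq v4 kit for very small amounts of RNA. The measure, called level here, is the deposited normalised read count of a gene. Of the 13341 genes in the table, 9729 reached a level of 10 in 2 or more of the 4 libraries and were tested.

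CD8+ T cells kill target cells with perforin and granzymes and release interferon gamma. Those that circulate leave tissues along a gradient of sphingosine 1-phosphate and enter lymph nodes with the help of CCR7. Those that stay in a tissue, known as resident memory cells, carry little of these receptors and hold on through integrins such as CD103 and chemokine receptors such as CXCR6. In lupus nephritis, CD8+ T cells enter the kidney and lie next to the tubules.

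The libraries followed their cell type label. Cd8a, the alpha chain of the CD8 coreceptor, was at 18302 and 18556 in kidney against 12159 and 12188 in spleen. It was 1.51-fold higher in kidney (log2 fold change 0.60 ± 0.13 SE, adjusted p = 0.0444), a call that was lost in 12 of 17 alternative analyses. Cd8b1, the beta chain, was at 13255 and 16928 in kidney against 15588 and 17552 in spleen (-0.14 ± 0.17 SE, adjusted p = 0.654). Cd4 was at 17.8 and 16.96 in kidney against 0 and 3.82 in spleen. Cd3e, part of the CD3 signalling module, was at 4225 and 6174 in kidney against 5367 and 6536 in spleen (adjusted p = 0.59) and Cd44 at 352 and 429 in kidney against 182 and 282 in spleen (adjusted p = 0.18). In a list of 20 genes of T cell identity 4 rose and 0 fell, the rises including Cd8a, Cd3g (2.33-fold higher) and Thy1 (1.91-fold). Depth was 7559659 to 10766521 reads per library. Over the 9729 tested genes, which do not count as replicates, Pearson's r of log2 levels between the libraries of an organ was 0.888 in kidney and 0.960 in spleen, and between libraries of different organs 0.774 to 0.848. Without kidney replicates 1 and 2 in turn, 0 and 0 of these 3 calls held, and without spleen replicates 1 and 2, 0 and 0. A fit of all 8 libraries kept 0, and one without the intensity trend 0.

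Between the organs 348 genes were higher in kidney, 3.58% of those tested, and 172 were lower, 1.77% (limma on log2(level + 1), Benjamini-Hochberg adjusted p below 0.05). Together these were 5.34% of the tested genes, and at an unadjusted p below 0.05 there were 2169. The count of every gene list below is to be read beside the shares of 3.58% and 1.77%. The median log2 fold change of all tested genes was -0.015. Of the 348 higher genes 209 had a mean level of at least 10 in spleen too, and 98 had 0 reads there. Of the 172 lower genes 137 had a mean of at least 10 in kidney, and 16 had 0 reads there. The counts rest on few libraries: without kidney replicates 1 and 2 in turn they became 167 and 25, and 189 and 208. Without spleen replicate 1 they became 0 and 0 (limma, with 728 and 496 genes at an unadjusted p below 0.05), and without spleen replicate 2 they became 21 and 1. The counts of every gene list below therefore fall to 0 without spleen replicate 1. With 1 library left in an organ, that library is assumed to vary like the pair in the other organ. Among the 134 called genes whose values were recomputed singly, the direction held in every alternative. Where the kidney and spleen libraries did not overlap, leaving out a library could not change the direction, so this adds no support to the calls. In the plot of mean level against organ difference, many genes of tubules and neutrophils lie along the outer edges, where 1 organ had no reads, and the labelled T cell genes lie inside them.

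**Figure D1:**
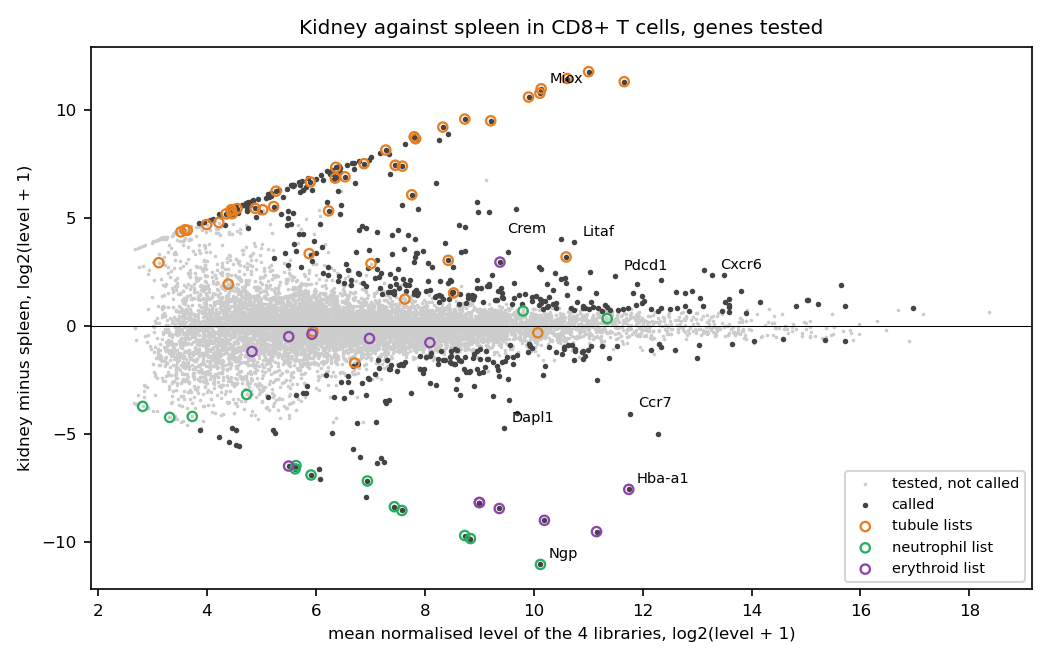
Each point is a tested gene in the 4 CD8+ libraries; the x axis gives its mean normalised level as log2(level + 1) and the y axis the difference of kidney minus spleen on the same scale. Dark points were called (348 higher, 172 lower) and rings mark lists of tubule, neutrophil and erythroid genes, whose members Miox, Ngp and Hba-a1 lie far from 0.

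RNA of other cells moved with the organ and is given before the T cell genes. Summed over 55 proximal tubule genes in the table, the level was 14360 and 43330 in kidney replicates 1 and 2, which is 0.184% and 0.579% of each library, against 1863 and 2210 in spleen. Of these genes 42 had 0 reads in both spleen libraries. Neutrophil genes summed to 4594 and 3464 in kidney and 6757 and 10180 in spleen, with 18 of 25 at 0 reads in kidney. Nearly all of the kidney sum came from Pglyrp1 (3359 and 2513) and Lyz2 (1235 and 921), which other cells also make. In spleen these stood at 2415 and 2151 and at 443 and 976. The sums therefore do not measure neutrophil RNA alone. Erythroid genes summed to 1129 and 2296 in kidney against 21660 and 14310 in spleen, where Hbb-b2 and Hbb-bt hold the same reads and are both counted. Globins made up most of the spleen sums. Most of the kidney sums came from Car2 (721 and 1659.7, against 156 and 125 in spleen), which kidney tubules also make. These sums therefore do not measure red cell RNA alone. B cell genes summed to 303 and 301 against 1152 and 1093. The part of this RNA in any T cell gene below was not tested. In such samples fewer cells of a type and less RNA per cell cannot be told apart.

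**Figure D2:**
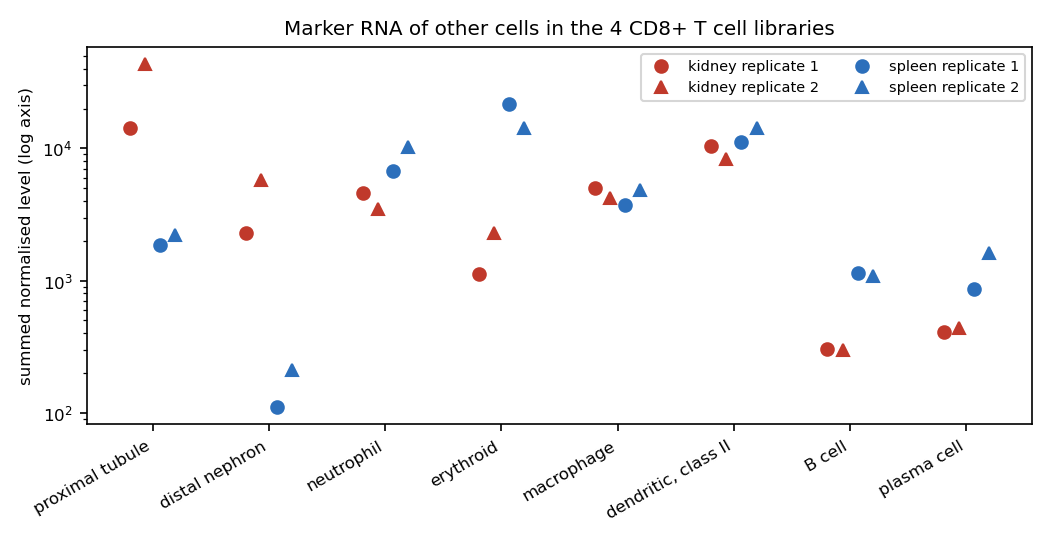
Summed normalised level (log axis) of 8 marker lists of other cells in the kidney (red) and spleen (blue) CD8+ libraries, circles for replicate 1 and triangles for replicate 2. Tubule lists are higher in kidney and most so in replicate 2, erythroid and B cell lists are higher in spleen, and the macrophage list overlaps between the organs.

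Many genes of tissue residency rose in kidney. Of 35 tested genes of the residency list 21 rose and 1 fell, with a median log2 fold change of 2.08. This list was written with earlier results of these data known and holds the marker genes Litaf and Crem, so its count is a description. The rises numbered 5, 7 and 4 without kidney replicate 1, kidney replicate 2 or spleen replicate 2. Litaf, an endosomal membrane protein named for its induction by bacterial lipopolysaccharide (chromosome 16, 10959368 to 11066250, minus strand, mm9), was at 3006 and 3393 in kidney against 199 and 238 in spleen. Both kidney libraries stood far above both spleen libraries, a 14.6-fold difference (log2 fold change 3.87 ± 0.19 SE, adjusted p = 3.85e-04). Crem, which modulates transcription at cyclic AMP elements, was at 1895 and 3592 in kidney against 149 and 166 in spleen. The organs did not overlap, but kidney replicate 2 was 1.896 times replicate 1 (log2 fold change 4.04 ± 0.31 SE, adjusted p = 7.79e-04). Osgin1, a growth inhibitor induced by oxidative stress (chromosome 8, 121958024 to 121970156, plus strand), had levels of 1170.5 and 1089 in kidney against 33.7 and 23.9 in spleen (log2 fold change 5.27 ± 0.31 SE, adjusted p = 3.89e-04), with the kidney libraries close together. Qpct, an enzyme that forms pyroglutamate at protein ends, was 24.2-fold higher (729 and 915 against 25.6 and 42.02, adjusted p = 8.10e-04). Rgs2, a regulator of G protein signalling, was 4.33-fold higher (8946 and 7859.9 against 1967 and 1908, adjusted p = 6.58e-04), and Isg20, an interferon-induced exonuclease, 5.67-fold higher (3995 and 3114 against 644 and 599, adjusted p = 7.51e-04).

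A chemokine receptor, integrin chains and E-cadherin were among these rises. Cxcr6, the receptor for the chemokine CXCL16 (chromosome 9, 123715595 to 123720872, plus strand), stood at 15249.6 and 17708 in kidney against 2835 and 3678 in spleen. The 2 organs were well apart (log2 fold change 2.35 ± 0.17 SE, adjusted p = 7.51e-04). Itgae, the CD103 integrin chain that binds E-cadherin, was at 663 and 614 in kidney against 98.3 and 92.6 in spleen (log2 fold change 2.73 ± 0.25 SE, adjusted p = 0.00185). Cdh1, which encodes E-cadherin itself, was at 421 and 326 in kidney against 10.8 and 3.82 in spleen (log2 fold change 5.62 ± 0.60 SE, adjusted p = 0.00289). Itga1, the collagen-binding integrin chain CD49a, was 15.3-fold higher (144 and 87.1 against 3.37 and 11.5, adjusted p = 0.0281). Cdh1 is also made by tubule epithelium. Its level in kidney replicate 2 was 0.775 times that in replicate 1, where called proximal tubule genes ranged from 0.778 to 8.68 and the called distal nephron gene Wfdc15b was at 0.322, and the part of tubule RNA in Cdh1 was not tested. Cd69, a surface marker of resident cells, stood at 7636 and 7084 against 9457 and 10279.6 with the higher values in spleen (-0.42 ± 0.14 SE, adjusted p = 0.134). Prdm1, the factor BLIMP1, was at 216 and 120.3 against 121 and 50.6 (adjusted p = 0.291) and Runx3 at 1387 and 1261 against 1107 and 1023 (adjusted p = 0.33). Of the 10 calls named here, 4 held without kidney replicate 1, 6 without kidney replicate 2, 0 without spleen replicate 1 and 4 without spleen replicate 2. Fitting all 8 libraries together left 7, and dropping the intensity trend left 7.

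**Figure D3:**
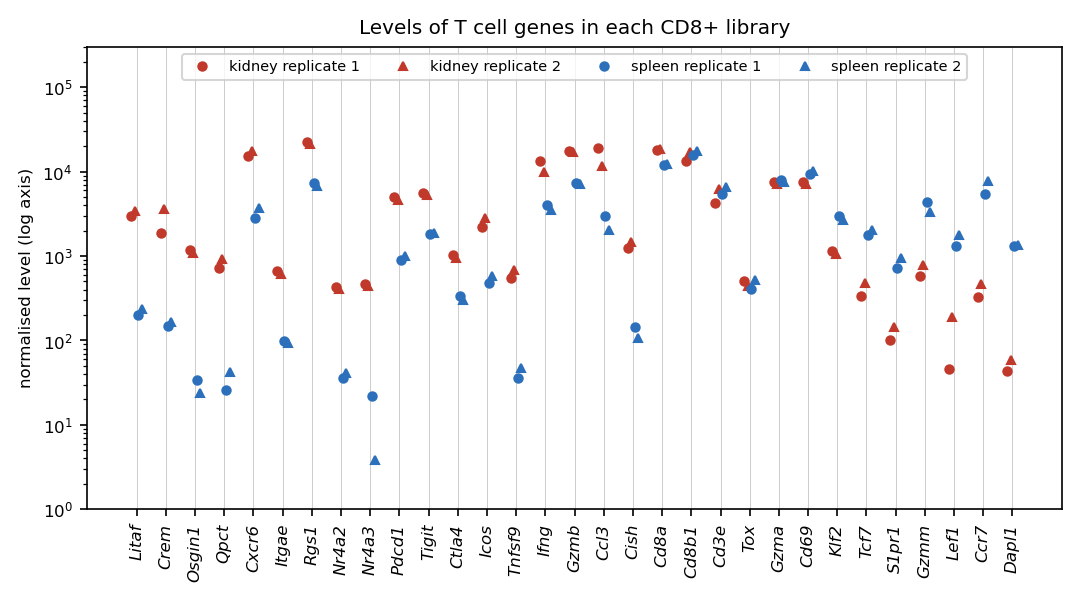
Normalised level (log axis) of 31 T cell genes in each CD8+ library, kidney in red and spleen in blue, circles for replicate 1 and triangles for replicate 2. From Litaf to Cish the kidney libraries are higher, from Klf2 to Dapl1 the spleen libraries are higher, and genes between them, such as Gzma and Tox, lie close together in all 4 libraries.

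Nuclear factors that follow receptor signals rose in part. All 3 NR4A genes, orphan nuclear receptors induced by T cell receptor signals, were higher in kidney. Nr4a2 was at 424 and 411 in kidney against 36.4 and 41.1 in spleen (log2 fold change 3.40 ± 0.33 SE, adjusted p = 0.00218). Nr4a3 was at 473 and 442 in kidney against 22.2 and 3.82 in spleen (log2 fold change 5.44 ± 0.73 SE, adjusted p = 0.00682), with only 4 reads in spleen replicate 2. Nr4a1 was at 195 and 321 in kidney against 64.6 and 74.5 in spleen (log2 fold change 1.84 ± 0.38 SE, adjusted p = 0.0352), the smallest of the 3 differences. Fosl2, a partner of JUN in the AP-1 factor, was 10.002-fold higher (324 and 284 against 30.3 and 28.6, adjusted p = 0.00363). Zfp36, which destabilises cytokine messages, was 2.096-fold lower (982 and 1257 against 1999 and 2717, adjusted p = 0.0329). These were 4 of the 23 tested immediate early genes that rose and the 1 that fell (median 0.44), so most members did not pass. In the cyclic AMP pathway 6 of 27 rose and 0 fell (median 0.44), and 5 of the 6 are also in the residency list. Of 13 tested genes of MAP kinase feedback 1 rose (7.69%, against 3.58% of all tested genes), the phosphatase Dusp2 (2592 and 1294 against 498 and 455, adjusted p = 0.0154). Of 22 NF-kappaB subunits and inhibitors 0 rose and 0 fell with limma (median -0.04), with 5 at an unadjusted p below 0.05, 0 called by edgeR and 1 by DESeq2. Nfkbia, an inhibitor of NF-kappaB, ranged from 485 and 697 against 951 and 3158, with spleen replicate 2 far above replicate 1 (adjusted p = 0.12). Without kidney replicates 1 and 2 in turn, 0 and 1 of these 6 calls held, and without spleen replicates 1 and 2, 0 and 0. With all 8 libraries in the fit 3 held, and without the intensity trend 2.

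The AP-1 letters TGANTCA, which read the same on both strands, were looked for in promoter windows from 250 bases before to 50 bases after the start in RefSeq (table build GRCm38.p6). Of 201 higher genes with a spleen mean of at least 10 and in no list of other cells, 155 had a window and 24 (15.5%) held the letters. The share was 5.94% (6 of 101) for lower genes with a kidney mean of at least 10 and in no such list, 5.8% (438 of 7553) for all tested genes and 8.97% for all 27025 genes with a window. The 24 include 3 near-identical Bcl2a1 genes and 3 genes of the killer lectin-like cluster, so they are not independent. The cyclic AMP response element TGACGTCA stood in 1 of 155 higher genes (0.645%), 4 of 101 lower genes (3.96%) and 3.96% of tested genes. The NR4A element AAAGGTCA, with both strands searched, stood in 0 of 155 higher genes, 4 of 101 lower genes (3.96%, Tcf7 among them) and 1.22% of tested genes. Over all 27025 genes with a window the shares were 2.03% and 1.7%. A gene counted when any of its windows held the letters, so a gene with more starts had more chances to match. A match is a run of letters and not a bound site. The windows of 4 higher genes with a match, 1 granzyme, 1 hypoxia target, 1 annexin and 1 residency gene, are shown 5′ to 3′ with the AP-1 letters in capitals. Each matched the mm9 genome exactly once on its chromosome, at chr14:56881122-56881421 (minus strand), chr6:29222376-29222675 (plus strand), chr8:121960797-121961096 (plus strand) and chr9:69301240-69301539 (plus strand). Hilpda had another window with the same site, chr6:29222238-29222537, which is not shown. The Osgin1 window lies inside the gene span given above, at a later start.
Gzmb: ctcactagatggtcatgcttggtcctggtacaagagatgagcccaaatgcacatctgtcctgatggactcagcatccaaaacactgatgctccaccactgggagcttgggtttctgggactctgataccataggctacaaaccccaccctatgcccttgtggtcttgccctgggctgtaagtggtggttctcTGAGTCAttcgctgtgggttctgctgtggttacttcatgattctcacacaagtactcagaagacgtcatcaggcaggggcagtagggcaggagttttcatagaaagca
Hilpda: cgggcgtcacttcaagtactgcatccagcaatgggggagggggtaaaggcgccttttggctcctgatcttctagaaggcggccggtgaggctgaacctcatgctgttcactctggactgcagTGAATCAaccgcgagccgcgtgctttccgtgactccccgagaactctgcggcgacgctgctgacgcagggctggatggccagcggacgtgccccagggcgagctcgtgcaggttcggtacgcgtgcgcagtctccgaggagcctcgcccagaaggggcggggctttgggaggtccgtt
Osgin1: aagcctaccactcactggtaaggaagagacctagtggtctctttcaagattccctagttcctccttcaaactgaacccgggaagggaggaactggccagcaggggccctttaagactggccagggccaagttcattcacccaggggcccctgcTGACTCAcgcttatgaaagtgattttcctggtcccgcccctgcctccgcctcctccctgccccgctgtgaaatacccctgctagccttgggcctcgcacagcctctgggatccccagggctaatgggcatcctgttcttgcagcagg
Anxa2: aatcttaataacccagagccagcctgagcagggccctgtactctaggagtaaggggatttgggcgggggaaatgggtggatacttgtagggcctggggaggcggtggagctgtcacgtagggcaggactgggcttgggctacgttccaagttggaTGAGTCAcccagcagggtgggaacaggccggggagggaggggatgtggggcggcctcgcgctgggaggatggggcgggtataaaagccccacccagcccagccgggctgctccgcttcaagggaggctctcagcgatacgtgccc

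Many genes of circulation and lymph node entry were lower in kidney. Of 34 tested genes of the recirculation list 16 fell (47.1%) and 0 rose, with a median log2 fold change of -1.84. This list too was written with earlier results known and holds the marker gene Dapl1, so its count is a description. Without kidney replicate 1, kidney replicate 2 or spleen replicate 2 the falls numbered 1, 7 and 1. Dapl1, a death-associated-protein-like gene (chromosome 2, 59322710 to 59343077, plus strand), was measured at 43.3 and 59.4 in kidney against 1331 and 1362 in spleen. That is 26.1-fold lower in kidney (log2 fold change -4.70 ± 0.27 SE, adjusted p = 3.89e-04), with both pairs close together. Ccr7, the receptor that guides T cells into lymph nodes (chromosome 11, 99005510 to 99016391, minus strand), was at 327 and 466 in kidney against 5452 and 7679 in spleen (log2 fold change -4.05 ± 0.24 SE, adjusted p = 3.89e-04). Kidney replicate 2 held more than replicate 1 for both Dapl1 and Ccr7, and neither came near a spleen library. S1pr1, the sphingosine 1-phosphate receptor of tissue exit, was at 102 and 143 in kidney against 731 and 942 in spleen (6.84-fold lower, adjusted p = 0.00242). Klf2, which drives S1pr1, was at 1137 and 1047 in kidney against 3005 and 2688 in spleen (2.604-fold lower, adjusted p = 0.0043). Tcf7 and Lef1, paired factors of naive and memory cells, were 4.75-fold and 16.3-fold lower, with Tcf7 at 337 and 475 against 1764 and 2058 (adjusted p = 0.00239) and Lef1 at 45.8 and 187 against 1306 and 1784 (adjusted p = 0.00898). Cmah, an enzyme that modifies sialic acid, was 10.7-fold lower (13.6 and 49.3 against 257 and 326, adjusted p = 0.0217). Il7r, the survival receptor of memory cells, was at 536 and 903 against 986 and 1269 (-0.68 ± 0.28 SE, adjusted p = 0.203), and Eomes at 716 and 534 against 807 and 636 (adjusted p = 0.637). Of the 7 calls named here, 1 held without kidney replicate 1, 6 without kidney replicate 2, 0 without spleen replicate 1 and 1 without spleen replicate 2. A fit of all 8 libraries kept 5, and one without the intensity trend 2.

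Genes of the TGF-beta response and of type 17 cells rose in part. Of 17 tested TGF-beta response genes 6 rose and 0 fell (median 1.25). The rises numbered 0, 1 and 0 without kidney replicate 1, kidney replicate 2 or spleen replicate 2. Besides Itgae and Cdh1 these included Ldlrad4, an inhibitor of TGF-beta signalling, at 705 and 920.4 in kidney against 210.1 and 161 in spleen (4.35-fold higher, adjusted p = 0.00485), and Nedd9, an adaptor of integrin signalling, at 643 and 533 in kidney against 199.99 and 222 in spleen (2.77-fold, adjusted p = 0.0158). Of 10 tested type 17 genes 5 rose and 0 fell (median 1.65), and Il17a and Il17f are not among the 5. Tmem176a and Tmem176b, a pair of neighbouring membrane protein genes, were at 243 and 394 in kidney against 9.43 and 25.8 in spleen and at 799 and 675 in kidney against 50.5 and 86.9 in spleen (18.6-fold and 10.9-fold higher, adjusted p = 0.00758 and 0.00218). S100a4, a calcium-binding protein of migrating cells, was at 2531 and 2005 in kidney against 420.2 and 397 in spleen (5.503-fold, adjusted p = 9.08e-04). Csf2, which encodes GM-CSF, was at 80.6 and 123 in kidney against 6.06 and 2.86 in spleen (19.3-fold, adjusted p = 0.0184). Il17a was at 14.4 and 1.54 against 0 and 0, under the level needed for a test, and Il17f had 0 reads in all 4 libraries. Without kidney replicates 1 and 2 in turn, 1 and 1 of these 6 calls held, and without spleen replicates 1 and 2, 0 and 1. Fitting all 8 libraries together left 5, and dropping the intensity trend left 3.

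Most of the changed receptors that restrain T cells were higher in kidney. Of 17 tested inhibitory receptors and partners 7 rose and 1 fell (median 0.96). Without kidney replicate 1, kidney replicate 2 or spleen replicate 2 the rises numbered 0, 2 and 1. Pdcd1, which encodes PD-1, was at 5022 and 4567 in kidney against 906 and 1011 in spleen. The 2 pairs were tight and 5.0-fold apart (log2 fold change 2.32 ± 0.16 SE, adjusted p = 6.58e-04). Tigit was at 5605 and 5229 in kidney against 1807 and 1887 in spleen (log2 fold change 1.55 ± 0.15 SE, adjusted p = 0.00189) and Ctla4 at 1020.3 and 944 in kidney against 333 and 298 in spleen (log2 fold change 1.64 ± 0.20 SE, adjusted p = 0.00525). Cd244, a SLAM family receptor, was 4.73-fold higher (355 and 222 against 49.8 and 68.8, adjusted p = 0.0198). Havcr2, which encodes TIM-3, was at 425 and 334 against 199 and 155 (1.1 ± 0.28 SE, adjusted p = 0.069). Tox, a factor of lasting stimulation, was at 505 and 437 against 409 and 519, with overlapping organs (0.03 ± 0.23 SE, adjusted p = 0.953). Lag3 was at 4.24 and 7.71 against 8.75 and 46.8 and was not tested.

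Of 13 tested costimulators 3 rose and 0 fell. Icos was at 2183 and 2843 in kidney against 476 and 586 in spleen (log2 fold change 2.24 ± 0.21 SE, adjusted p = 0.00185). Tnfrsf1b, a TNF receptor of T cells, was 5.19-fold higher (1116 and 906 against 214 and 174, adjusted p = 0.00239) and Tnfrsf4, which encodes OX40, 3.88-fold (321 and 244 against 62.6 and 81.2, adjusted p = 0.0207). These 3 calls are the rises of that list. Tnfsf9, the ligand of the costimulator encoded by Tnfrsf9, was at 550.02 and 685 in kidney against 35.7 and 47.7 in spleen (log2 fold change 3.86 ± 0.33 SE, adjusted p = 0.00122). Of the 8 calls named here, 0 held without kidney replicate 1, 2 without kidney replicate 2, 0 without spleen replicate 1 and 1 without spleen replicate 2. With all 8 libraries in the fit 4 held, and without the intensity trend 2.

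Effector genes were mixed. Of 20 tested cytotoxic granule genes 7 rose and 1 fell (median 0.59). The rises numbered 0, 0 and 0 without kidney replicate 1, kidney replicate 2 or spleen replicate 2. Gzmb, granzyme B, was at 17598 and 16917 in kidney against 7274 and 7190.4 in spleen (2.39-fold higher, log2 fold change 1.25 ± 0.13 SE, adjusted p = 0.00289). Gzmk was at 6039 and 5481 in kidney against 2459.8 and 2728 in spleen (2.22-fold, adjusted p = 0.00621) and Ctsw, cathepsin W, at 22841 and 26872 in kidney against 11577 and 11644 in spleen (2.13-fold, adjusted p = 0.00657). Gzmm, granzyme M, went the other way at 587 and 791 in kidney against 4365 and 3369.9 in spleen (5.62-fold lower, adjusted p = 0.00132). Gzma was at 7534 and 7103 in kidney against 7914 and 7445 in spleen (-0.07 ± 0.14 SE, adjusted p = 0.8), and Prf1, perforin, at 566 and 1176 against 1238 and 2048 (-0.96 ± 0.37 SE, adjusted p = 0.182). Fasl, which encodes Fas ligand, was 1.94-fold higher (5465 and 4512 against 2651 and 2467, adjusted p = 0.0177), and Fas, which carries the lpr mutation in this strain, was at 340.4 and 284 against 335 and 321 (adjusted p = 0.879).

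Of 13 tested cytokine genes 5 rose and 2 fell (median 1.31). Ifng was at 13296 and 9958 in kidney against 4023 and 3522 in spleen (3.06-fold higher, log2 fold change 1.61 ± 0.18 SE, adjusted p = 0.00356) and Tnf at 424 and 677 in kidney against 104 and 175 in spleen (3.95-fold, adjusted p = 0.0227). Of 8 tested chemokines 3 rose and 0 fell (median 1.94), all 3 of them also in the residency list. Ccl3 and Ccl4, inflammatory chemokines, were at 19170.2 and 11627 in kidney against 2951 and 2051 in spleen and at 97274 and 63519 in kidney against 24930.1 and 17744 in spleen (6.07-fold and 3.74-fold higher, adjusted p = 0.00266 and 0.00597). Xcl1, which attracts cross-presenting dendritic cells, was 3.95-fold higher (3152 and 1818 against 699.6 and 524, adjusted p = 0.00901). Kidney replicate 1 stood above replicate 2 in all 3 chemokines and in Ifng, and Cxcl10 did not pass (118 and 183 against 41.7 and 21.96, adjusted p = 0.0526). Without kidney replicates 1 and 2 in turn, 0 and 0 of these 10 calls held, and without spleen replicates 1 and 2, 0 and 0. A fit of all 8 libraries kept 1, and one without the intensity trend 0.

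**Figure D4:**
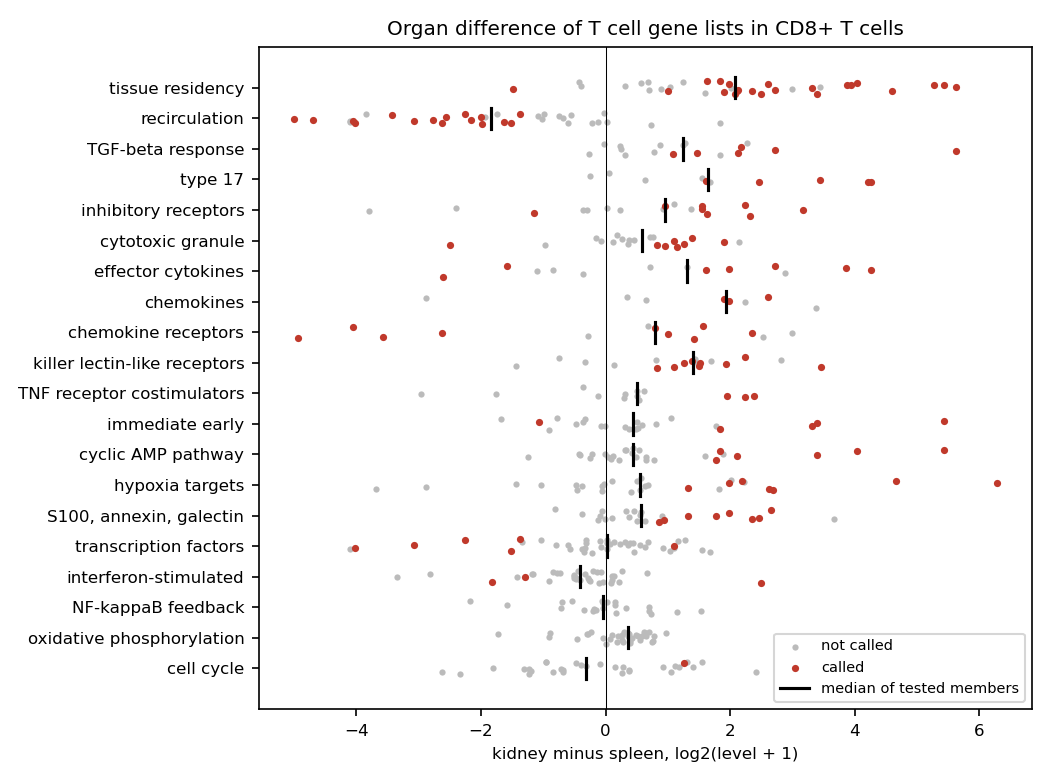
Organ difference of each tested member of 20 T cell gene lists, as kidney minus spleen in log2(level + 1); red points were called and black bars are list medians. The residency list has 21 rises and a median of 2.08, the recirculation list 16 falls and a median of -1.84, and the NF-kappaB and oxidative phosphorylation lists have 0 calls.

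Chemokine receptors changed in both directions, 5 up and 4 down among 13 tested. Besides Cxcr6, Cxcr3, the receptor for interferon-induced chemokines, was at 5141 and 6374 in kidney against 3166 and 3473 in spleen (1.73-fold higher, adjusted p = 0.0376) and Ccrl2 was 2.95-fold higher (657 and 427 against 174 and 183, adjusted p = 0.0233). Besides Ccr7, the gut-homing receptor Ccr9 was at 21.2 and 24.7 in kidney against 229.6 and 346 in spleen (11.8-fold lower, adjusted p = 0.00466). Cxcr5, which guides cells to B cell follicles, was at 0.849 and 11.6 in kidney against 119 and 179.5 in spleen (adjusted p = 0.0306), and Cx3cr1, a receptor of blood effector cells, was 6.15-fold lower (20.4 and 45.5 against 168 and 221, adjusted p = 0.03). Of 23 tested integrins and adhesion genes 5 rose and 2 fell, the latter including Icam2 (299.6 and 401 against 949 and 1187, adjusted p = 0.00965).

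Killer lectin-like and related receptors rose in part, 9 of 18 tested with 0 falls (median 1.41). Without kidney replicate 1, kidney replicate 2 or spleen replicate 2 the rises numbered 0, 1 and 0. Klrc1 and Klrd1, which encode the NKG2A and CD94 chains of an inhibitory receptor for Qa-1, were at 5903 and 5835 in kidney against 2201 and 2276 in spleen and at 3129 and 2616 in kidney against 1495 and 1198 in spleen (2.62-fold and 2.14-fold higher, adjusted p = 0.00253 and 0.0183). Fcer1g, a signalling chain shared by innate receptors, was at 1125 and 455 in kidney against 61.3 and 66.8 in spleen (11.02-fold, adjusted p = 0.00528). Its level in kidney replicate 2 was 0.404 times that in replicate 1, against 0.988 for Klrc1 and 0.836 for Klrd1. Which cells gave the Fcer1g reads was not tested. Reads of the Klrc genes can be shared between close copies.

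Among 32 tested cytokine receptor and signalling genes 2 rose (6.25%) and 1 fell (3.12%, median -0.06). Over all tested genes these shares were 3.58% and 1.77%. Cish, a feedback inhibitor induced by STAT5, was at 1243 and 1452 in kidney against 146 and 107 in spleen. It was 10.7-fold higher, with the organs far apart (log2 fold change 3.41 ± 0.25 SE, adjusted p = 7.51e-04). Il10ra was 2.94-fold higher (351 and 315 against 101 and 125, adjusted p = 0.0254). Usp18, which restrains the interferon receptor, was 3.54-fold lower (397 and 666 against 1683 and 1978, adjusted p = 0.00947). In the interferon-stimulated list 1 of 35 rose (2.86%) and 2 fell (5.71%, median -0.41), and the share of rises was near that of all tested genes. The 1 rise was Isg20. Among 41 tested T cell transcription factors 1 rose (2.44%) and 5 fell (12.2%), and the rise was Id2 (17463 and 14309.8 against 8027 and 6833, 2.13-fold, adjusted p = 0.0105). Tbx21, the T-bet factor, was at 166 and 161 against 92.3 and 62.1 (1.1 ± 0.38 SE, adjusted p = 0.144). Of the 13 calls named here, 0 held without kidney replicate 1, 3 without kidney replicate 2, 0 without spleen replicate 1 and 1 without spleen replicate 2. Fitting all 8 libraries together left 2, and dropping the intensity trend left 2.

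Hypoxia targets rose in part while the main energy pathways gave few or no calls. Of 27 tested hypoxia targets 7 rose and 0 fell (median 0.56). The rises numbered 1, 3 and 1 without kidney replicate 1, kidney replicate 2 or spleen replicate 2. Hilpda, a lipid droplet protein, was at 2660.2 and 2066 in kidney against 550.1 and 482 in spleen (4.54-fold higher, log2 fold change 2.18 ± 0.20 SE, adjusted p = 0.00167). Ndrg1, a stress-response gene, was at 629.8 and 900.4 in kidney against 25.6 and 32.5 in spleen (25.3-fold, log2 fold change 4.66 ± 0.34 SE, adjusted p = 7.51e-04). Anxa2, a membrane-binding annexin, was 2.499-fold higher (11714 and 12682 against 4562 and 5211, adjusted p = 0.00344). Ak4, a mitochondrial adenylate kinase, was at 93.4 and 63.2 against 0 and 0 (at least 65.5-fold more than in spleen, where it had 0 reads, adjusted p = 0.00965). Of 55 proximal tubule genes 42 also had 0 reads in both spleen libraries. In kidney replicate 2 Ak4 was 0.677 times replicate 1, where called proximal tubule genes ranged from 0.778 to 8.68. Which cells gave the Ak4 reads was not tested. Hif1a itself was at 132 and 167 against 136 and 73.5 (0.56 ± 0.41 SE, adjusted p = 0.467). Of 21 tested glycolysis genes 2 rose (9.52%, against 3.58% of all tested genes) and 0 fell. The rises were Gapdh (13341 and 14232 against 8737 and 8508, adjusted p = 0.032) and Ldhb (1037 and 2814 against 257 and 250.2, adjusted p = 0.011). The kidney libraries differed 2.71-fold in Ldhb. Of 36 subunits of oxidative phosphorylation 0 passed (limma; median 0.36), with 14 at an unadjusted p below 0.05, 0 called by edgeR and 4 higher and 1 lower by DESeq2. Of 27 genes of sterol and fatty acid metabolism 0 passed too (limma), with 8 unadjusted, 0 by edgeR and 2 higher and 2 lower by DESeq2. For 15 genes of ATP and adenosine handling these counts were 0 and 6 with limma, 1 higher by edgeR, and 2 higher and 1 lower by DESeq2. Over the alternatives other than leaving out a library, up to 9 oxidative phosphorylation genes were called higher and up to 4 lower, with up to 3 and 2 for sterol and fatty acid genes and 2 and 1 for adenosine genes.

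Calcium-binding and cytoskeletal effector genes rose in part, 8 of 24 tested with 0 falls (median 0.57). Without kidney replicate 1, kidney replicate 2 or spleen replicate 2 the rises numbered 2, 3 and 0. S100a6 was at 22835 and 16012 in kidney against 3906 and 3553 in spleen (5.13-fold higher, adjusted p = 9.91e-04) and Capg, an actin-capping protein, at 1279.99 and 1252 in kidney against 294 and 348 in spleen (3.95-fold, adjusted p = 0.00242). Of 25 antioxidant genes 6 rose and 0 fell, among them Prdx5 (2024 and 1961 against 603 and 667, adjusted p = 0.00269), Prdx6 (10989 and 12144 against 6002 and 6214, adjusted p = 0.011) and the ferritin chain Fth1 (1464 and 1435 against 561 and 568, adjusted p = 0.00597). Of 24 survival and death genes 6 rose and 0 fell, led by 3 copies of the survival gene Bcl2a1, whose reads can be shared. Bcl2a1b was at 7463 and 4736 in kidney against 1535 and 1505 in spleen (3.91-fold, adjusted p = 0.00363). Of 31 cell cycle genes 1 rose (3.23%, near the 3.58% of all tested genes), Tyms (815 and 522 against 263 and 279.8, adjusted p = 0.0409). Mki67, a marker of dividing cells, was at 11.9 and 24.7 against 18.2 and 32.5 (adjusted p = 0.748). Of 20 heat shock genes 1 rose, Hspa1b, at 954 and 2158 in kidney against 7.41 and 138 in spleen (adjusted p = 0.0373), with both pairs far apart within an organ. Without kidney replicates 1 and 2 in turn, 2 and 6 of these 14 calls held, and without spleen replicates 1 and 2, 0 and 2. With all 8 libraries in the fit 4 held, and without the intensity trend 2.

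Other genes with large differences and a mean level of at least 10 in both organs were named by size. Ly6g5b, a member of the Ly6 family in the major histocompatibility region, was at 914 and 1038 in kidney against 28.95 and 20.1 in spleen (38.8-fold higher, log2 fold change 5.28 ± 0.33 SE, adjusted p = 4.60e-04). Its kidney pair and its spleen pair were each close together. Apol9b, an apolipoprotein L gene, was 16.5-fold higher (271 and 583 against 16.8 and 31.5, adjusted p = 0.00597). Idh1, the cytosolic isocitrate dehydrogenase, and the glutathione transferases Gstm1 and Gstt1 were 18.8-fold, 54.3-fold and 20.3-fold higher (adjusted p = 0.00703, 0.00574 and 0.0228). In these 4 genes kidney replicate 2 was 2.15, 2.75, 3.56 and 1.91 times replicate 1. Fcgrt, the neonatal Fc receptor, was at 83.2 and 70.9 in kidney against 634 and 814 in spleen (9.25-fold lower, log2 fold change -3.21 ± 0.28 SE, adjusted p = 0.00133). Pdlim1, a PDZ and LIM domain protein, was at 49.2 and 301 against 1273 and 1371 (10.7-fold lower, adjusted p = 0.036), and Slc16a5, a monocarboxylate transporter, at 11.03 and 50.1 against 282 and 271 (adjusted p = 0.0284). Further large falls were those of Kif23, a kinesin of cell division (9.87-fold), Cpq, a carboxypeptidase (9.84-fold), Reck, an inhibitor of matrix proteases (9.09-fold), and Thtpa, a thiamine triphosphatase that overlaps Ap1g2 on the other strand (21.5-fold).

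Among called genes with a mean level under 10 in spleen and in no list of other cells, the highest in kidney were Gsta2, Gstm5, Krt83, Pcbd1, Cdh1 and Selenbp1. Gstm5 was at 435 and 736 against 6.06 and 3.82, Pcbd1, a pterin dehydratase, at 193 and 602 against 0 and 0 (at least 344-fold higher) and Gsta2 at 188 and 1177 against 0 and 0 (at least 596-fold higher). Krt83, a keratin, was at 341 and 879.6 against 0 and 0.955 (ratio of reads 1578, 95% counting interval 283 to 62387) and Selenbp1 at 143 and 511 against 3.37 and 0. Kidney replicate 2 was 1.69 to 6.28 times replicate 1 in these 5 genes other than Cdh1. In the other direction Drc1, a subunit of motile cilia, was at 0 and 0 against 261 and 218 (at least 200.4-fold lower in kidney, adjusted p = 0.00218). Treml2, a receptor of the TREM family, was at 0 and 13.1 against 285 and 307 (adjusted p = 0.0233), Slpi, a leukocyte protease inhibitor, at 0 and 15.4 against 298 and 265 (adjusted p = 0.0301) and Gabrr2 at 0 and 10.02 against 224 and 321 (adjusted p = 0.0195). Tmem108 was at 3.395 and 2.31 against 247 and 154 (adjusted p = 0.00427) and Tdrp at 0 and 9.25 against 176 and 257 (adjusted p = 0.0224). Neutrophils and B cells express some of these genes, and which cells gave the reads was not tested. Of the 23 calls named here, 3 held without kidney replicate 1, 13 without kidney replicate 2, 0 without spleen replicate 1 and 2 without spleen replicate 2. A fit of all 8 libraries kept 9, and one without the intensity trend 8.

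Most tested proximal tubule genes rose in kidney. Of 39 tested proximal tubule genes 28 rose (71.8%) and 0 fell. The rises numbered 30, 30 and 8 without kidney replicate 1, kidney replicate 2 or spleen replicate 2. Miox, the oxygenase that breaks down inositol, was at 1252 and 3247 in kidney against 0 and 0 in spleen (at least 1939-fold higher at an adjusted p of 3.89e-04). Fbp1, a phosphatase of gluconeogenesis, was at 856 and 3571 in kidney against 0 and 0 in spleen (at least 1924-fold, adjusted p = 6.58e-04). Kidney replicate 2 exceeded replicate 1 in both. Keg1, a glycine N-acyltransferase-like gene, was at least 1663-fold higher. Gpx3, a secreted glutathione peroxidase, was at 2327 and 10628 in kidney against 0 and 2.86 in spleen (ratio of reads 5636, 95% counting interval 1928 to 27334). Rida, an imine deaminase, had reads in every library (1831 and 3781 against 292 and 279.8, 9.18-fold, adjusted p = 0.00242). Of 7 tested distal nephron genes 3 rose, Fxyd2, a subunit of the sodium pump (1721 and 4549 against 0 and 0, at least 2703-fold, adjusted p = 3.85e-04), Wfdc15b (177 and 57.04 against 0 and 0) and Klk1 (69.6 and 219 against 0 and 8.59, a call lost in 9 of 17 alternatives). Of 4 tested glomerular, endothelial and stromal genes 1 rose, Timp3 (93.4 and 88.7 against 0 and 0, at least 76.7-fold). Among these 4, 2 had both kidney libraries above both spleen libraries. The reverse held for 1, Ehd3, which did not pass (292 and 364 against 496 and 464). Over all 9729 tested genes, 5203 had organs that did not overlap, in either direction. Of the 17 measured members of this list, 11 had 0 reads in spleen and 4 had 0 reads in kidney. The summed level of the list overlapped between the organs (404.9 and 528.8 in kidney against 517.1 and 503.2 in spleen).

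Most tested neutrophil and red cell genes were lower in kidney. Of 15 tested neutrophil genes 9 fell and 0 rose. Without kidney replicate 1, kidney replicate 2 or spleen replicate 2 the falls numbered 5, 9 and 0. Ngp, a granule protein, was at 0 and 0 in kidney against 1429.6 and 3032 in spleen (at least 1726-fold lower, adjusted p = 3.85e-04). S100a8 and S100a9, the calprotectin chains, and Lcn2 had 0 reads in kidney too (at least 671-fold, at least 738-fold and at least 300.4-fold lower). Pglyrp1 and Lyz2, which other cells also make, did not pass (3359 and 2513 against 2415 and 2151 and 1235 and 921 against 443 and 976). Of 13 tested erythroid genes 7 fell and 1 rose. Hbb-b2 and Hbb-bt, both among those that fell, had the same reads in every library, so 1 measurement is counted under 2 symbols. The falls numbered 4, 7 and 0 without kidney replicate 1, kidney replicate 2 or spleen replicate 2. Hba-a1 was at 12.7 and 90.96 in kidney against 8231 and 5402 in spleen (188-fold lower, adjusted p = 0.00239) and Hbb-b1 at 0 and 36.2 in kidney against 5477 and 3594 in spleen (adjusted p = 0.00965). The rise was Car2, a carbonic anhydrase also made in kidney tubules (721 and 1659.7 against 156 and 125, adjusted p = 0.00638).

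Antigen-presenting cell genes were mixed. Of 15 tested macrophage genes 2 rose, C1qb (429 and 356 against 32.99 and 73.5, adjusted p = 0.00981) and C1qa (122 and 57.8 against 9.43 and 4.77, adjusted p = 0.0405), and 1 fell. The fall was Cx3cr1, which is also in the T cell lists of recirculation and chemokine receptors. Of 12 tested dendritic cell and class II genes 2 rose, H2-Eb1 (1216 and 641 against 222 and 231, adjusted p = 0.0156) and Cst3 (2875 and 3209.9 against 1980.4 and 1713, adjusted p = 0.0488, a call lost in 12 of 17 alternative analyses), and 1 fell, Ccr7, which T cells express. H2-Aa did not pass (2041 and 1213 against 815 and 889, adjusted p = 0.0966). Of 7 tested B cell genes 3 fell and 0 rose: Cd79b (247 and 223 against 931 and 794, adjusted p = 0.0043), Cd79a (0 and 1.54 against 32.99 and 49.7, ratio of reads 49.4, 95% counting interval 13.3 to 413) and Ly6d (0 and 0 against 42.4 and 45.8, at least 36.2-fold lower). Of 4 tested plasma cell genes 1 fell, Jchain (224 and 201 against 750.1 and 1455, adjusted p = 0.00852). Of 7 tested genes of CD4+ and regulatory T cells 2 rose and 1 fell, Ctla4, Tnfrsf4 and Cxcr5, all of which CD8+ cells can express. No gene of the platelet and gamma delta T cell lists reached the level for a test. Over these paragraphs on other cells, 24 calls were named, of which 13 held without kidney replicate 1, 16 without kidney replicate 2, 0 without spleen replicate 1 and 5 without spleen replicate 2.

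The 2 kidney libraries held unequal amounts of proximal tubule RNA. Over the 28 higher proximal tubule genes the ratio of kidney replicate 2 to replicate 1 had a median of 2.63 (quartiles 2.07 and 4.24, range 0.778 to 8.68), and 23 of them exceeded 2. Called genes of other kidney lists did not all share this: Fxyd2 was at 2.64 and Klk1 at 3.15, but Timp3 at 0.949 and Wfdc15b at 0.322. The ratio therefore does not mark RNA of kidney origin in general. Over 97 higher genes of the T cell lists the median was 0.901 (0.749 and 1.07), and 4 exceeded 2. Over 21 higher residency genes it was 0.931 and 0 exceeded 2, Crem being the highest at 1.896. Litaf was at 1.13 and Pdcd1 at 0.909. Among 108 higher genes with a spleen mean under 10 and in no list of other cells the median was 1.73, and 45 exceeded 2. All 4544 tested genes with a kidney mean of at least 100 had a median of 0.983. These ratios describe 2 libraries and were given no test.

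**Figure D5:**
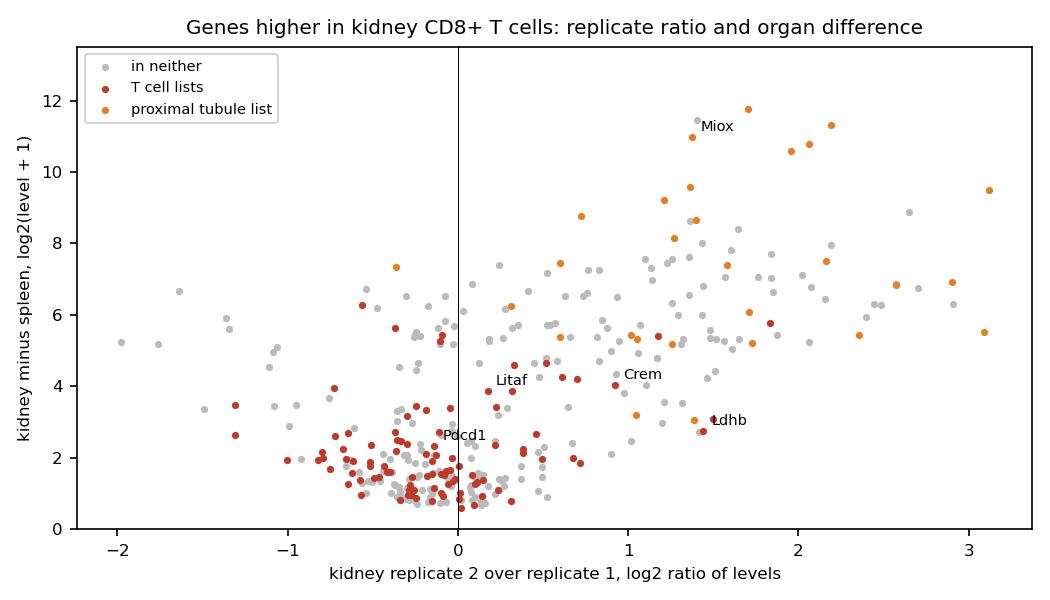
Each point is a gene higher in kidney CD8+ T cells; the x axis is the log2 ratio of its level in kidney replicate 2 to replicate 1 and the y axis its organ difference in log2(level + 1). Most proximal tubule genes (orange) lie to the right, with a median ratio of 2.63, and genes of T cell lists (red) lie around 0, with a median ratio of 0.901; Crem and Ldhb stand to the right of most of them.

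The organ difference in CD8+ cells was set against that in CD4+ cells with an interaction term over all 8 libraries. It called 0 of 10845 genes (limma, 0.00%; 362 at an unadjusted p below 0.05), and edgeR on recovered reads also called 0 (319 unadjusted). No gene named here was therefore shown to differ between the cell types in its organ effect. In CD4+ cells Litaf was at 1188 and 647 in kidney against 289 and 323 in spleen (difference of log2 fold changes 2.35 ± 0.54 SE), Crem at 4455 and 5593 in kidney against 444 and 524 in spleen (0.67 ± 0.55 SE) and Dapl1 at 34.5 and 107 in kidney against 149 and 210.5 in spleen (-3.18 ± 0.79 SE). Without kidney CD4+ replicate 1 the interaction called 649 positive and 96 negative genes, and without kidney CD4+ replicate 2 it called 4 and 4, so these counts depend on which kidney CD4+ library is kept.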

How the data were processed

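The submitters' processing notes name mm9, STAR 2.5.3 and TopHat2 2.1.0, with no roles. Which tool counted reads, and on which annotation, is not given in the sources used here. What the authors deposited is 1 gene table of signal, meaning normalised counts, for all 8 libraries. Its values are whole multiples of 1 step per library, so whole reads were recovered for 100% of values (tolerance 1e-06); 0 columns were left unused. The 4 CD8+ libraries were fitted alone with limma 3.58.1 in R 4.3.3 on log2(level + 1), with an intensity trend and 2 residual degrees of freedom (7.50 with those borrowed across genes), for genes that reached a level of 10 in 2 libraries. Fold changes are on that scale and understate changes of low genes. Adjusted p-values are limma's. Bounds take 3 reads over both libraries of an organ; these and 95% intervals cover counting error only. The kit does not mark strand, so reads of a gene cannot be told from those of one that overlaps it on the other strand. Among genes given with values this holds for Anxa2, Ccr9, Cish, Crem, Csf2, Cxcl10, Gstm5, H2-Aa, Hif1a, Keg1, Ndrg1, Prdx5, Slc16a5, Thtpa, Timp3, Tox and Tyms; Bcl2a1b and Ccr9 also overlap a gene on their own strand, and some symbols could not be looked up. Gene positions come from GENCODE vM1 (11966 of 13341 symbols matched). In simulated reads for this comparison (9300 genes) 10%, 50%, 76% and 86% of genes changed 2-, 4-, 8- and 16-fold were called, with 0 false among 111 calls. The simulation gave both organs the same spread and held no uneven RNA of other cells. In the data the SD of replicate log2 differences was 0.615 in kidney and 0.417 in spleen (mean level at least 100). Simulated 2- and 8-fold changes were all rises and the others all falls. These shares therefore cannot be carried over to the data. The members, 30 T cell lists and 12 lists of other cells were chosen with earlier results of these data known; 84 genes are in more than 1 T cell list. Genes named were the marker genes, the largest called changes, up to 4 members of each list with the smallest adjusted p, the most abundant markers of other cells and a fixed set. Alternatives included edgeR 4.0.16 and DESeq2 1.42.0 on recovered reads. A few genes that the naming rule covers are not reported here.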

Additional observations from a re-analysis of the deposited data

How the results depend on the processing

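The 348 higher and 172 lower genes became 317 and 143 with a pseudocount of 0.5, 425 and 243 with 5, 292 and 139 without a filter, 373 and 241 at a level of at least 50, 337 and 188 with median-of-ratios scaling, 339 and 177 with TMM scaling, 378 and 180 with edgeR, and 342 and 169 with the filter taken over all 8 libraries, an alternative chosen after seeing the data. They moved further with DESeq2 (621 and 411), without the intensity trend (175 and 55), with all 8 libraries (139 and 37) and with 6 libraries without the kidney CD4+ pair (534 and 329). The cause was not tested. Leaving out 1 library gave 0 to 189 higher and 0 to 208 lower genes; with 3 libraries 1 residual degree of freedom is left. With the replicate number as a block they became 647 and 568, and the share of higher genes went from 66.9% to 53.3%. That share was 87% without kidney replicate 1, 47.6% without kidney replicate 2, 95.5% without spleen replicate 2, 79% with all 8 libraries and 76.1% without the trend. The numbers are not said to pair the samples; the replicate differences of the organs correlated at 0.195 over 4530 genes with a mean level of at least 100 and at 0.0382 over all tested genes. Of 134 named calls 34 held in all 13 alternatives other than leaving out a library, and 0 reversed in any. For genes whose organs did not overlap, leaving out a library could not reverse the direction. Of genes not called, some changed direction when 1 library was left out: Aqp3 ranged from -0.79 to 0.29, Cd3e from -0.49 to 0.0599, Cd8b1 from -0.32 to 0.0333, Fas from -0.21 to 0.0532, Mki67 from -0.98 to 0.0188 and Tox from -0.14 to 0.20. The median of the adenosine list was -0.34 and became 0.32, 0.30 and 0.29 at a level of at least 50, with edgeR and with DESeq2, and -1.35 to 0.55 with 1 library left out; that of the plasma cell list went from -0.77 to 0.76 at a level of at least 50. The interaction gave 0 to 649 positive and 0 to 96 negative genes with 1 library left out. Genes under a level of 10 were not compared at this depth.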
